A study of Rattus norvegicus with 18 samples.

Results

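Fibulins and the proteins of the elastic fibre form part of the extracellular matrix, the network of secreted proteins around cells. An elastic fibre is built from elastin, which is laid down on microfibrils of fibrillin and cross-linked there by lysyl oxidases. Fibulin-4 and fibulin-5 guide elastin and these enzymes to the microfibril, whereas fibulin-2 is known as a linker between fibronectin, basement membrane proteins and the chondroitin sulphate proteoglycans that are abundant in brain matrix. Latent TGF-beta binding proteins hold the growth factor TGF-beta on the same scaffold.

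The expression of 10 genes of this matrix was examined in cultures of neurons and glia from rat cerebral cortex. They encode fibulin-1 (Fbln1), fibulin-2 (Fbln2), fibulin-5 (Fbln5), fibulin-3 (Efemp1), fibulin-4 (Efemp2), fibrillin-1 (Fbn1), elastin (Eln), fibronectin (Fn1), latent TGF-beta binding protein 1 (Ltbp1) and elastin microfibril interfacer 1 (Emilin1). They were found by name among the 31463 rows of each count table. Of these 10 genes, 9 passed the filter on low counts, together with 14398 genes in all. Efemp1 did not pass. The set was chosen by the level of Fbln2, which was picked because it was higher in the Glutamate_secret group than in the Glutamate group, so that this difference is given as a description and without a test.

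RNA was sequenced from 18 libraries in 6 groups of 3. All cultures came from the cortex of newborn Wistar rats, received cytosine arabinoside early in culture to limit cell division, and were used on day 10 in vitro. Control cultures received no glutamate, and the Glutamate group received 100 µM glutamate, which damages neurons in excess (excitotoxicity). In the Memantine group, 100 µM memantine, which blocks NMDA receptors for glutamate, was the positive control. Its label does not name glutamate, although the design text places it in the glutamate model. The remaining groups received glutamate after secreted material of glial progenitor cells derived from human induced pluripotent stem cells, given a day earlier. They are called Glutamate_vesicles, for extracellular vesicles, Glutamate_secret and Glutamate_BPC, and are referred to together as the preparation groups. The labels do not settle which of the last pair received a protein fraction and which the total secretome. RNA was taken 4 h after glutamate. Levels are counts scaled to 1e+06 per library (CPM) with the TMM factors of edgeR, which correct library sizes for differences in composition, and are given in the order of replicate numbers 1, 2 and 3.

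Library totals ranged from 8409574 to 17206354 counts. Between 3.04% and 43.0% of the counts fell on ribosomal RNA rows, and TMM factors ranged from 0.417 to 1.58. The lowest total, the highest ribosomal share and the lowest factor all belonged to Control 1. No neuronal and no astrocyte marker of the lists was at 0 in any library. The summed level of 7 neuronal markers was 1914 to 2603 CPM in Control, 540 to 1050 CPM in Glutamate, 599 to 3018 CPM in Memantine and 464 to 976 CPM over the preparation groups. In bulk RNA, fewer cells of a type and less RNA per cell cannot be told apart. The paper describes its experiments in general as repeated on unrelated cultures, and its supplement names a day covariate for the expression data. The labels tie no library to a culture or a day, so that p-values measure the spread between these libraries, part of which may be technical.

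Promoter windows of 250 bases before the transcript start were held in the RefSeq table (assembly GRCr8) for 6 of the 10 genes. Shown are the bases that precede the whole annotated gene for Fbln2, Fbln5 and Ltbp1, the members with an unadjusted p below 0.05 when Glutamate_vesicles was compared with Control. They are 55 bases at chr4:125261409-125261463 (plus strand), 109 bases at chr6:126742848-126742956 (minus strand) and 205 bases at chr6:26177347-26177551 (minus strand). Each is written 5′ to 3′ on the strand of the gene, and capitals mark a GC box (GGGCGG on either strand).
Fbln2: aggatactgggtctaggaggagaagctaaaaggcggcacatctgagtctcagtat
Fbln5: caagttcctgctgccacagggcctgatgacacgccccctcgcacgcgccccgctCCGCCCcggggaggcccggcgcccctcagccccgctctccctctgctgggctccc
Ltbp1: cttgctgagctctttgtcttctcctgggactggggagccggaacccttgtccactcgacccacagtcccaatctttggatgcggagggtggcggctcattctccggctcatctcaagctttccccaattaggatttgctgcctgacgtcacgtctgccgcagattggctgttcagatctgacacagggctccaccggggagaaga

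In the full windows of 250 bases, a GC box occurred in 4 of the 6 genes, with 3 matches each in Fbln2 and Efemp2 and 1 each in Fbln5 and Efemp1. The matches of Fbln2 lay closer to the start than the bases shown. A GC box was held by 30.5% of all 33469 promoter windows of this length. Further motifs were searched on both strands. The TATA box TATAAA (12.9% of all windows) and the TEAD element GGAATG (12.1%) matched none of the 6 genes. The AP-1 element TGANTCA (6.34%) matched Efemp1, and the SMAD element CAGACA (17.2%) matched Fbn1. A match is a run of letters and was not tested as a binding site.

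Fbln2 was higher in every library of the preparation groups than in every library of the other groups. Part of this order was set by the choice of Fbln2, which used the Glutamate and Glutamate_secret libraries. It is therefore given as a description. The level of Fbln2 was 316, 96.1 and 71.7 CPM in Control, 304, 121 and 135 CPM in Glutamate, and 175, 79.0 and 135 CPM in Memantine. In Glutamate_vesicles it was 659, 409 and 491 CPM, in Glutamate_secret 723, 447 and 1862 CPM, and in Glutamate_BPC 552, 358 and 721 CPM. The lowest of the 9 preparation libraries (358 CPM) stood just above the highest of the 9 other libraries (316 CPM, Control 1). The counts themselves, without any scaling for the differing library totals, did not overlap either. They were at least 4587 in the preparation libraries and at most 2357 in the others. The same order within each replicate number follows from the separation of all libraries and adds no further support. Preparation libraries spanned 552 to 723 CPM against 175 to 316 CPM in number 1. The spans were 358 to 447 CPM against 79.0 to 121 CPM in number 2. For number 3 they were 491 to 1862 CPM against 71.7 to 135 CPM.

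**Figure D1:**
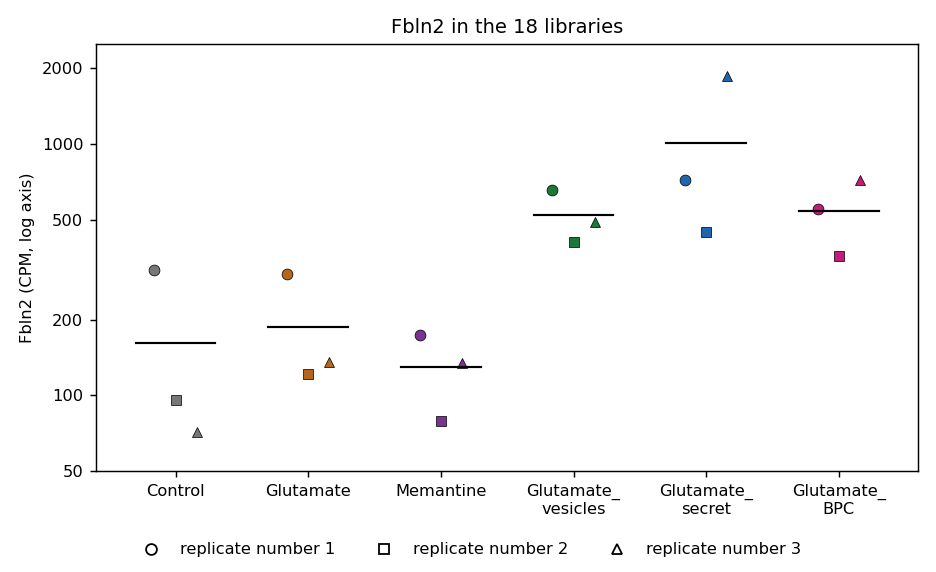
Fbln2 level (CPM, logarithmic axis) in each of the 18 libraries by group, with the symbol giving the replicate number and the line the mean of 3 libraries. The 9 libraries of the preparation groups lie between 358 and 1862 CPM, all above the 9 libraries of Control, Glutamate and Memantine, which lie between 71.7 and 316 CPM.

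By mean level, Fbln2 ranked in the order Glutamate_secret (1010 ± 750 CPM, SD, n = 3), Glutamate_BPC (544 ± 182), Glutamate_vesicles (520 ± 128), Glutamate (187 ± 102), Control (161 ± 135) and Memantine (130 ± 48.0). The ranges of the 3 preparation groups overlapped one another, and so did those of the other 3 groups. In the contrast by which Fbln2 was picked, Glutamate_secret minus Glutamate, the log2 fold change was 2.43 (SE 0.66). It depended on 1 library, since without Glutamate_secret 3, which had the highest level of all, it was 1.65. Beside it, Glutamate_vesicles and Glutamate_BPC stood 1.48 and 1.54 above Glutamate on the log2 scale. These comparisons use the same Glutamate libraries as the choice of the gene, so that no p is given.

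The comparisons of Fbln2 with Control that used neither the Glutamate nor the Glutamate_secret libraries were tested. In Glutamate_vesicles the log2 fold change was 1.69 (SE 0.64, edgeR quasi-likelihood test, unadjusted p = 0.018, adjusted p = 0.30). In Glutamate_BPC it was 1.75 (SE 0.64, unadjusted p = 0.015, adjusted p = 0.32). Neither passed the adjusted threshold of 0.05. With the replicate number as a block, the adjusted p was 0.0502 for Glutamate_vesicles. In Memantine the difference from Control was -0.31 (SE 0.62, unadjusted p = 0.62, adjusted p = 1.00). Control 1 was high for its group, and without it the values were 2.63 for Glutamate_vesicles and 2.70 for Glutamate_BPC.

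Fbln5, which links elastin to cells and to microfibrils, had a similar order at lower levels of its own. It was at 10.8, 21.8 and 21.4 CPM in Control, 17.4, 30.1 and 18.1 CPM in Glutamate, and 12.03, 20.5 and 22.4 CPM in Memantine. In Glutamate_vesicles it was 30.4, 54.6 and 34.6 CPM, in Glutamate_secret 27.7, 67.2 and 25.2 CPM, and in Glutamate_BPC 43.9, 66.1 and 31.9 CPM. Within each replicate number all 3 preparation libraries were above the other 3. Across numbers, the 6 libraries of Glutamate_vesicles and Glutamate_BPC (30.4 to 66.1 CPM) lay above the 6 of Control and Memantine (10.8 to 22.4 CPM), whereas Glutamate 2 (30.1 CPM) lay above 2 libraries of Glutamate_secret. Fbln2 and Fbln5 were the only tested members with this separation of 6 from 6 libraries, which was found in 0.639% of all tested genes. For the other separations of libraries given here and below, the share over all tested genes was not counted. Those separations are descriptions. For Fbln5 it was lost when libraries were scaled by their totals without ribosomal RNA and without TMM factors (30.97 CPM against 33.8 CPM).

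In the tests, Fbln5 was 1.14 above Control on the log2 scale in Glutamate_vesicles (SE 0.46, unadjusted p = 0.024, adjusted p = 0.34, edgeR quasi-likelihood test). It was 1.15 above Control in Glutamate_secret (SE 0.46, unadjusted p = 0.023, adjusted p = 0.33) and 1.38 above it in Glutamate_BPC (SE 0.46, unadjusted p = 0.0083, adjusted p = 0.30). Against Glutamate, the difference had an unadjusted p below 0.05 only in Glutamate_BPC (1.11, SE 0.45, unadjusted p = 0.027, adjusted p = 1.00). Without Glutamate_secret 2, the library with the highest Fbln5 level, the value for Glutamate_secret against Control was 0.54.

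Efemp2, which recruits lysyl oxidase to elastin, had its lowest group mean and its smallest SD in CPM in Control. Its level was 26.6, 16.4 and 21.4 CPM in Control, 68.3, 12.7 and 51.3 CPM in Glutamate, and 44.7, 10.1 and 57.8 CPM in Memantine. In Glutamate_vesicles it was 80.3, 32.9 and 48.8 CPM, in Glutamate_secret 81.0, 33.0 and 105 CPM, and in Glutamate_BPC 61.5, 51.2 and 79.7 CPM. All 9 preparation libraries were above all 3 Control libraries, but they overlapped those of Glutamate and Memantine. In all 6 groups the library with replicate number 2 was the lowest. The log2 fold change against Control was 1.77 in Glutamate_secret (SE 0.65, unadjusted p = 0.016, adjusted p = 0.29, edgeR quasi-likelihood test) and 1.58 in Glutamate_BPC (SE 0.65, unadjusted p = 0.027, adjusted p = 0.37).

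Fbln1, a fibulin of elastic fibres and basement membranes, was at 0, 5.0 and 5.1 CPM in Control, 3.4, 7.1 and 7.3 CPM in Glutamate, and 1.5, 3.8 and 9.7 CPM in Memantine. In Glutamate_vesicles it was 7.8, 5.6 and 7.0 CPM, in Glutamate_secret 4.7, 7.5 and 2.9 CPM, and in Glutamate_BPC 5.3, 6.1 and 11.0 CPM. Its groups overlapped, apart from Control with Glutamate_vesicles and with Glutamate_BPC. Efemp1, whose product is fibulin-3, had only 1 to 33 counts in a library, with the highest count in Control 3. Its level was 0.11 to 1.78 CPM and was not tested.

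Eln, the elastic core of the fibre, was at 13.4, 29.3 and 31.5 CPM in Control, 27.0, 24.8 and 28.3 CPM in Glutamate, and 38.6, 22.2 and 38.8 CPM in Memantine. It was 14.8, 24.4 and 16.4 CPM in Glutamate_vesicles, 12.4, 18.1 and 12.7 CPM in Glutamate_secret, and 21.3, 19.2 and 32.2 CPM in Glutamate_BPC. The 6 libraries of Glutamate_vesicles and Glutamate_secret were below the 3 of Glutamate. In Glutamate_secret, Eln was lower than in Glutamate by a log2 fold change of -0.89 (SE 0.37), which is given without a test because the contrast is the one that chose Fbln2. Control 1, with 13.4 CPM, was as low as the Glutamate_secret libraries, so that the ranges of Control and Glutamate_secret overlapped.

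Fbn1, the fibrillin on which elastin is deposited, was low throughout. It was at 1.7, 2.5 and 3.4 CPM in Control, 2.8, 7.1 and 1.6 CPM in Glutamate, and 1.2, 8.8 and 1.1 CPM in Memantine. In Glutamate_vesicles it was 0.60, 7.3 and 3.0 CPM, in Glutamate_secret 0, 6.8 and 0.91 CPM, and in Glutamate_BPC 2.4, 2.5 and 1.1 CPM. Every pair of its groups overlapped. Emilin1, a glycoprotein at the border of elastin and microfibril that also limits TGF-beta processing, was at 4.3, 9.8 and 15.5 CPM in Control, 10.6, 9.1 and 20.2 CPM in Glutamate, and 10.7, 5.6 and 20.5 CPM in Memantine. Its values were 19.9, 11.1 and 13.4 CPM in Glutamate_vesicles, 15.8, 11.1 and 13.8 CPM in Glutamate_secret, and 12.6, 9.2 and 18.4 CPM in Glutamate_BPC. It too overlapped between all groups.

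Fn1, which forms the provisional matrix that fibulins bind, and Ltbp1 had their highest values in Glutamate_vesicles. Fn1 was at 4.9, 16.4 and 37.4 CPM in Control, 8.1, 52.8 and 10.5 CPM in Glutamate, and 12.7, 70.3 and 13.6 CPM in Memantine. It was 35.9, 181 and 118 CPM in Glutamate_vesicles, 7.1, 144 and 11.8 CPM in Glutamate_secret, and 24.6, 73.2 and 14.97 CPM in Glutamate_BPC. In 5 of the 6 groups the library with number 2 was the highest, and the median over groups was 10.4 CPM for number 1, 71.7 CPM for number 2 and 14.3 CPM for number 3. The same held for Fbln5, Fbn1 and Ltbp1, each highest in number 2 in 5 of 6 groups.

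Ltbp1 was at 0, 0.49 and 0.75 CPM in Control, 0.65, 1.9 and 0.29 CPM in Glutamate, and 0.32, 1.1 and 0.29 CPM in Memantine. It was 1.8, 6.7 and 3.3 CPM in Glutamate_vesicles, 0.16, 4.0 and 1.1 CPM in Glutamate_secret, and 0.91, 3.2 and 0.43 CPM in Glutamate_BPC. The Glutamate_vesicles libraries (18 to 166 counts) did not overlap those of Control (0 to 14 counts). The log2 fold change was 3.01 (SE 1.13, unadjusted p = 0.017, adjusted p = 0.30, edgeR quasi-likelihood test), and with the replicate block the adjusted p was 0.051.

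**Figure D2:**
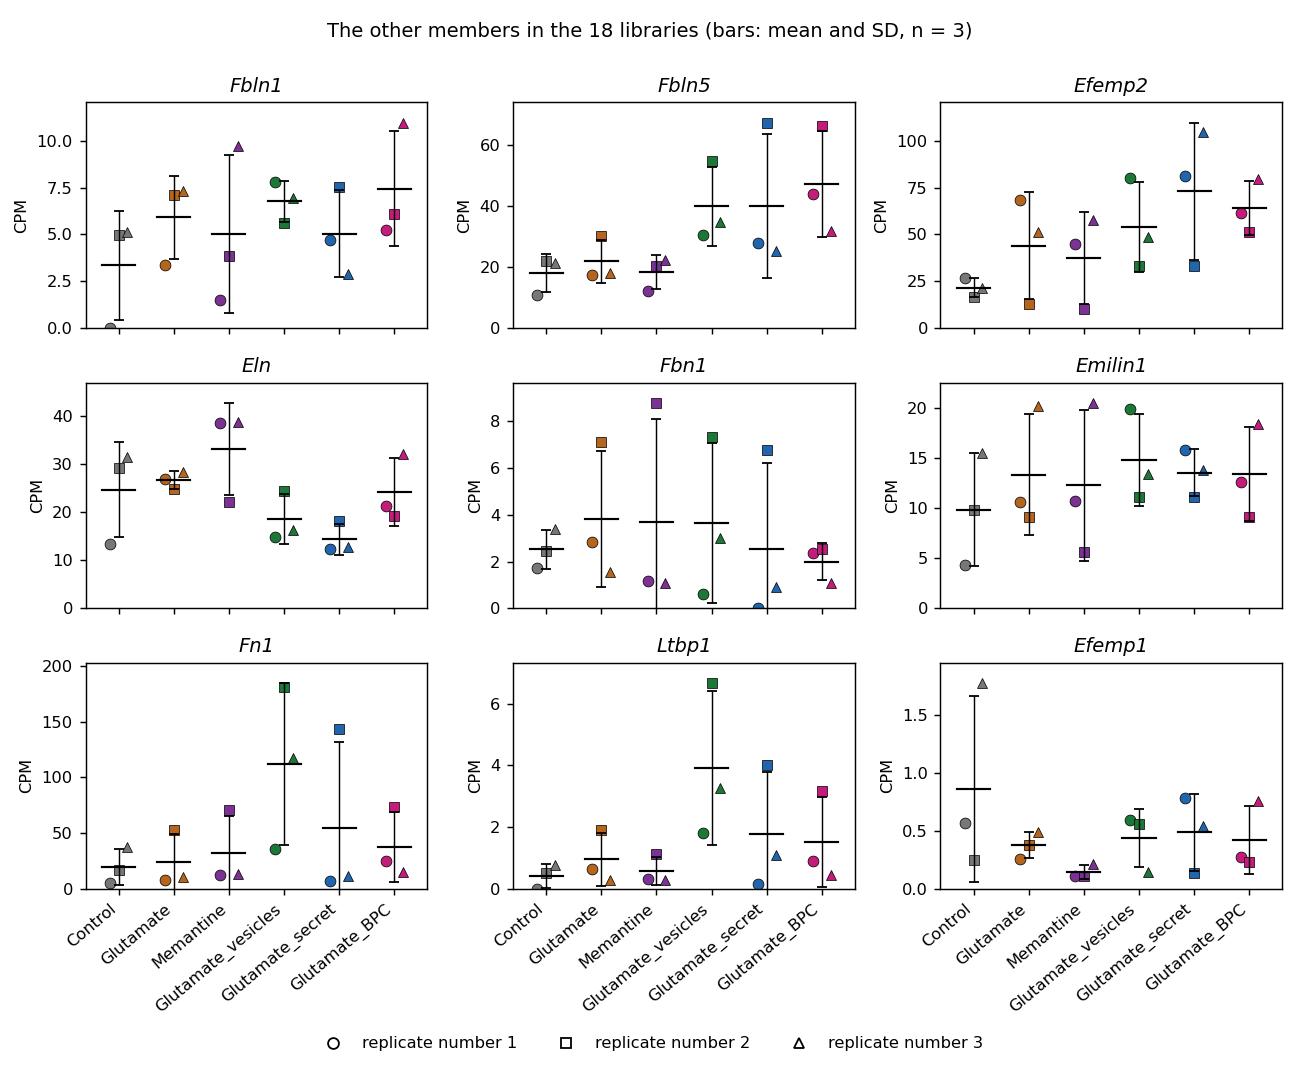
Levels (CPM, linear axes from 0) of the other 9 members in the 18 libraries by group, with the symbol giving the replicate number, the long bar the mean and the thin bar the SD of 3 libraries (cut at 0). Fbln5 is higher in the preparation groups within each replicate number, Eln is lowest in Glutamate_secret (12.4 to 18.1 CPM), and Fn1 is highest in Glutamate_vesicles 2 (181 CPM).

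Fbln2 was not tested in comparisons that use the Glutamate or the Glutamate_secret libraries, and it is left out of the counts there. Among the members tested, none passed an adjusted p of 0.05 in any of the 9 comparisons with the edgeR quasi-likelihood test, the edgeR likelihood-ratio test or DESeq2. Of all tested genes, the share past that threshold in the quasi-likelihood test was 0% in 8 comparisons and 0.0139% in Glutamate_vesicles against Control. Numbers below therefore refer to a weaker, second criterion, a fold change above 1.5 at an unadjusted p below 0.05. Against Control, the count was 3 of 9 members in Glutamate_vesicles (Fbln2, Fbln5 and Ltbp1) beside 11.6% of all tested genes. It was 2 of 8 in Glutamate_secret (Efemp2 and Fbln5) beside 11.7%, and 3 of 9 in Glutamate_BPC (Fbln2, Fbln5 and Efemp2) beside 11.3%. All of these were higher than in Control, while the shares count both directions. Of the 14398 tested genes, 572, 591 and 562 were higher than in Control, in the same order. The median log2 fold change over these members was 1.14, 0.84 and 1.08 in the same order, and over all tested genes it was 0.03, 0.06 and -0.06.

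Blocking on the replicate number raised the count for Glutamate_vesicles against Control to 5 of 9, adding Efemp2 and Fn1. The number over all 14398 tested genes rose too, from 1665 in the main test to 2817 with the block. The likelihood-ratio test and DESeq2 gave the same 5 members, beside 1811 and 2091 of all tested genes. No member had an adjusted p below 0.05 in this blocked fit, where 3.74% of all tested genes did. The counts for the other preparations depended on single libraries. Without Control 2 the count was 1 of 8 in Glutamate_secret and 1 of 9 in Glutamate_BPC. It was also 1 of 8 in Glutamate_secret without Glutamate_secret 3, and 1 of 9 in Glutamate_BPC without Control 3.

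No member met either criterion in Glutamate against Control (0 of 8, beside 8.07% of all tested genes), although all 8 log2 fold changes were above 0, with a median of 0.50 against 0.08 over all genes. Memantine against Glutamate gave 0 of 8 (5.06%) and Memantine against Control 0 of 9 (1.12%). At an unadjusted p below 0.05 alone, no member was found in these 3 comparisons by the quasi-likelihood test, the likelihood-ratio test or DESeq2. Leaving out Glutamate 2 gave 1 member in Glutamate against Control, and leaving out Memantine 2 gave 1 in Memantine against Control. A p that misses the threshold does not show that these groups were alike.

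Against Glutamate, the preparation groups gave 0 of 8 members in Glutamate_vesicles (1.08% of all tested genes) and 1 of 8 in Glutamate_BPC (Fbln5, 1.06%). Without Glutamate 1, Glutamate 3 or Glutamate_BPC 2, the latter count was 0. For Glutamate_vesicles, the count was 1 with the likelihood-ratio test and with DESeq2 (Fn1), and 3 without Glutamate 2. Over all 14398 tested genes, the likelihood-ratio test gave 188 and DESeq2 226. In the contrast that chose Fbln2, 0.674% of all tested genes met the criterion, and no count of members is given. With the replicate block, 0% of all tested genes had an adjusted p below 0.05 in Memantine, Glutamate_secret or Glutamate_BPC against Glutamate.

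**Figure D3:**
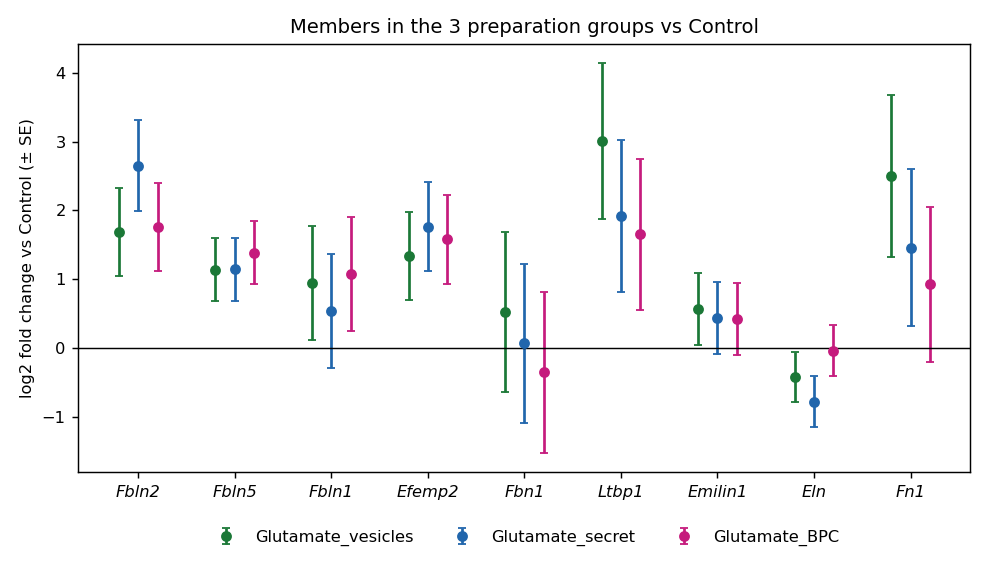
Log2 fold change against Control with its SE (bars) for the 9 tested members in Glutamate_vesicles, Glutamate_secret and Glutamate_BPC. Fbln2, Fbln5 and Efemp2 lie more than 1 above 0 in all 3 preparation groups, and Ltbp1 reaches 3.01 in Glutamate_vesicles. Eln lies at -0.42 in Glutamate_vesicles, at -0.78 in Glutamate_secret and near 0 (-0.04) in Glutamate_BPC.

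Over the 18 libraries, Fn1 and Ltbp1 gave Pearson r = 0.92 on log2 CPM (n = 18), Fbln5 with Ltbp1 r = 0.80 and Fbln2 with Efemp2 r = 0.77. When levels were centred within each replicate number, these values were 0.88, 0.72 and 0.79. Other pairs depended on the centring, which raised Fbln1 with Emilin1 from r = 0.70 to 0.89 and Fbln5 with Efemp2 from r = 0.13 to 0.71. Fbln2 and Eln varied in opposite directions (r = -0.65). Fbln2 with Fn1 gave r = -0.06. These libraries share groups, replicate numbers and scaling, and the correlations are descriptions. The genes most like Fbln2 were taken from 8816 genes whose mean log2 CPM was 3 or more. They were Fam114a1 (r = 0.84), Mycbp (r = 0.84), Mfap4 (r = 0.83), Fam89a (r = 0.83) and Rps27l (r = 0.83). Mfap4 encodes a microfibril-associated glycoprotein that binds elastin and fibrillin.

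Partners of the elastic fibre were examined in a list of 27 genes, of which 20 were tested and none had an adjusted p below 0.05 in the main test. The list holds further fibrillins and microfibril proteins, lysyl oxidases, latent TGF-beta binding proteins and emilins. By the second criterion, 4 of 20 were higher than in Control in Glutamate_vesicles, beside 11.6% of all tested genes that met it in either direction. In Glutamate_secret 2 were higher and 1 was lower (beside 11.7%), and in Glutamate_BPC 5 were higher (beside 11.3%). Their median log2 fold change was 0.98, 0.46 and 0.63 in that order. The median over all tested genes was between -0.06 and 0.06. Glutamate and Memantine gave 0 of 20 against Control, and against Glutamate the counts were 0 of 20 in Memantine, 1 in Glutamate_vesicles (Emilin3, beside 1.08%) and 1 in Glutamate_BPC (Mfap4, beside 1.06%), both higher.

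Mfap4 was at 10.6, 4.8 and 12.7 CPM in Control, 16.8, 8.2 and 25.0 CPM in Glutamate, and 13.2, 2.1 and 34.4 CPM in Memantine. It was 63.7, 31.5 and 28.2 CPM in Glutamate_vesicles, 79.9, 36.8 and 110 CPM in Glutamate_secret, and 77.6, 30.7 and 144 CPM in Glutamate_BPC. All preparation libraries were above those of Control and Glutamate. The log2 fold change against Control was 2.14 (SE 0.81, adjusted p = 0.31) in Glutamate_vesicles, 3.02 (SE 0.84, adjusted p = 0.17) in Glutamate_secret and 3.17 (SE 0.85, adjusted p = 0.30) in Glutamate_BPC, by the edgeR quasi-likelihood test. With the replicate block, the adjusted p in Glutamate_vesicles was 0.027. Against Glutamate, Mfap4 was 2.34 higher in Glutamate_BPC on the log2 scale (SE 0.81, adjusted p = 1.00). In the contrast that chose Fbln2 it stood 2.18 higher, given without a test. Emilin3, another emilin, was low (0 to 0.65 CPM in Control, 3.1 to 5.6 CPM in Glutamate_vesicles). Its log2 fold change against Control in Glutamate_vesicles was 3.85 (SE 1.04, adjusted p = 0.19), and its blocked adjusted p was 0.046. Loxl1, a lysyl oxidase, was 1.72 above Control in Glutamate_vesicles (SE 0.60, adjusted p = 0.28) and 1.47 above it in Glutamate_BPC (SE 0.60, adjusted p = 0.37). The gene below Control was Fbln7, another fibulin, at -1.46 in Glutamate_secret (SE 0.68, adjusted p = 0.42).

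Among 11 fibronectin receptor and processing genes, 8 were tested and none had an adjusted p below 0.05 in the main test. By the second criterion, 2 of 8 were higher than in Control in each preparation group. Of all tested genes, 11.6%, 11.7% and 11.3% met it in either direction in Glutamate_vesicles, Glutamate_secret and Glutamate_BPC. Glutamate gave 1 of 8 against Control, beside 8.07%. Itga5, the alpha subunit of the classical fibronectin receptor, was at 2.0, 3.7 and 10.2 CPM in Control, 23.5, 11.999 and 9.0 CPM in Glutamate, and 16.1, 4.5 and 12.1 CPM in Memantine. It was 30.9, 41.6 and 40.7 CPM in Glutamate_vesicles, 11.5, 24.6 and 9.96 CPM in Glutamate_secret, and 22.4, 20.7 and 12.5 CPM in Glutamate_BPC. The Glutamate_vesicles libraries were above all others. Against Control, the log2 fold change was 2.80 in Glutamate_vesicles (SE 0.62, adjusted p = 0.16, edgeR quasi-likelihood test), with a blocked adjusted p of 0.028. It was 1.35 above Glutamate (SE 0.59, adjusted p = 1.00). Itga5 was 1.45 above Control in Glutamate (SE 0.60, adjusted p = 0.52), 1.51 in Glutamate_secret (SE 0.60, adjusted p = 0.33) and 1.77 in Glutamate_BPC (SE 0.60, adjusted p = 0.30). Sdc4, a proteoglycan co-receptor of fibronectin, was 1.70 above Control in Glutamate_secret and 1.62 in Glutamate_BPC (adjusted p = 0.36 and 0.40). The beta subunit Itgb1 was 1.26 above Control in Glutamate_vesicles (SE 0.58, adjusted p = 0.41).

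All 9 genes of the TGF-beta list, the growth factors kept by latent TGF-beta binding proteins with their receptors and known targets, were tested, and none passed the adjusted threshold in the main test. Tgfb2, a TGF-beta ligand, was at 393, 113 and 87.0 CPM in Control, 85.9, 91.0 and 104 CPM in Glutamate, and 188, 105 and 59.4 CPM in Memantine. It was 47.4, 34.5 and 31.0 CPM in Glutamate_vesicles, 51.5, 35.8 and 47.2 CPM in Glutamate_secret, and 39.8, 36.7 and 38.8 CPM in Glutamate_BPC. All preparation libraries were below all others. How many of all tested genes had this order was not counted, so it is a description. Tgfb2 was also lower in Glutamate than in Control by the second criterion. Control 1, with 393 CPM, was far above the other Control libraries and had the highest ribosomal share. Differences from Control therefore depend in part on that library. The log2 fold change against Control was -2.39 in Glutamate_vesicles (SE 0.52, adjusted p = 0.16, blocked adjusted p = 0.023), -2.14 in Glutamate_secret (SE 0.51, adjusted p = 0.13) and -2.36 in Glutamate_BPC (SE 0.52, adjusted p = 0.30). Against Glutamate it was -1.32 in Glutamate_vesicles and -1.29 in Glutamate_BPC, each with adjusted p = 1.00 in the edgeR quasi-likelihood test.

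Ccn2, a matricellular protein known as a TGF-beta target, had the opposite order of levels. It was at 5.4, 6.2 and 4.4 CPM in Control, 27.0, 12.3 and 4.1 CPM in Glutamate, and 3.8, 5.0 and 3.7 CPM in Memantine. It was 31.9, 65.5 and 41.5 CPM in Glutamate_vesicles, 21.4, 41.5 and 19.4 CPM in Glutamate_secret, and 38.7, 113 and 21.6 CPM in Glutamate_BPC. All preparation libraries were above those of Control and Memantine, and Glutamate 1 lay among them. Ccn2 was also higher in Glutamate than in Control by the second criterion. Against Control its log2 fold change was 3.11 in Glutamate_vesicles (SE 0.67, adjusted p = 0.16, blocked adjusted p = 0.022), 2.36 in Glutamate_secret (SE 0.66, adjusted p = 0.17) and 3.43 in Glutamate_BPC (SE 0.68, adjusted p = 0.30). In Memantine it was -1.79 relative to Glutamate (SE 0.64, adjusted p = 0.64).

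**Figure D4:**
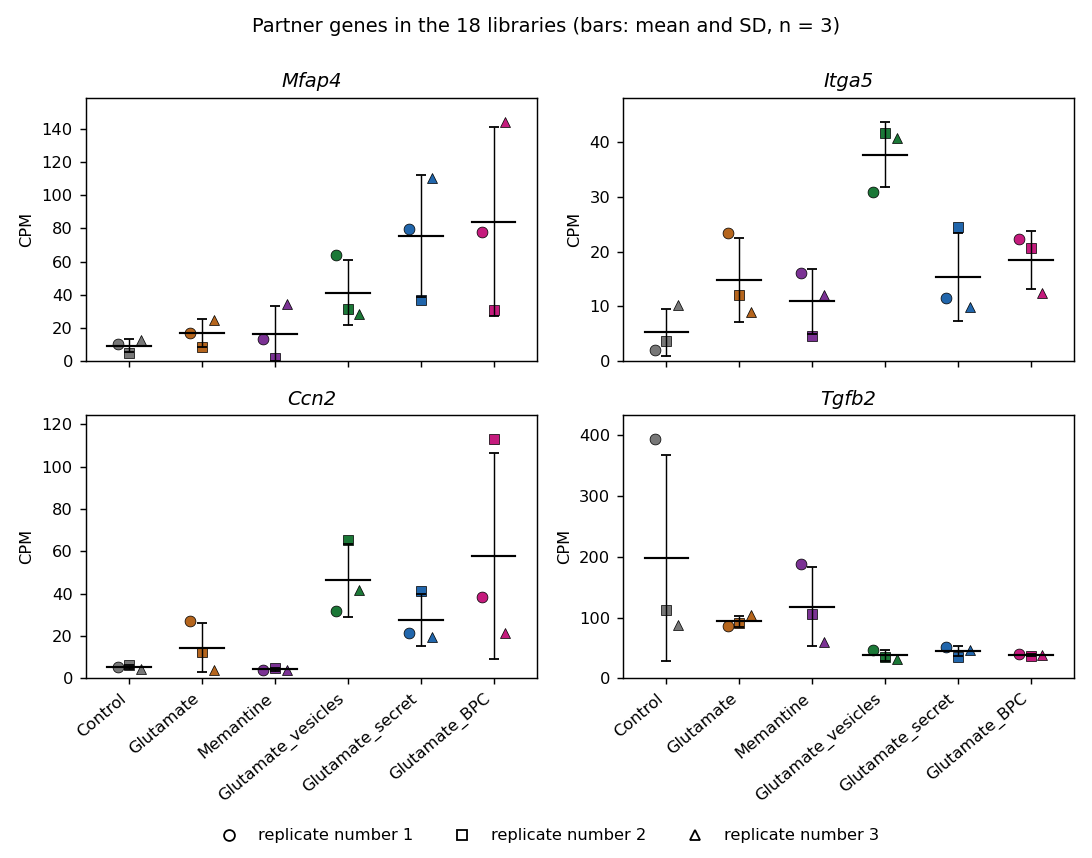
Levels (CPM, linear axes from 0) of Mfap4, Itga5, Ccn2 and Tgfb2 in the 18 libraries by group, with the symbol giving the replicate number, the long bar the mean and the thin bar the SD of 3 libraries (cut at 0). Tgfb2 is lower in the 9 preparation libraries (31.0 to 51.5 CPM) than in the 9 others (59.4 to 393 CPM), and Itga5 is highest in Glutamate_vesicles (30.9 to 41.6 CPM).

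Several matrix genes are known from fibroblasts and from mural cells of vessels, and the cortex had been cleared of its vascular lining. Markers of these cells were therefore summed in each library. Of 8 fibroblast markers, Dcn was at 0 in 12 of the 18 libraries and Lum in 10, and Col1a1 reached at most 7.42 CPM. Pdgfra, which also marks oligodendrocyte precursors, made up 69.4% to 94.9% of the sum. The summed level was 24.8 to 108 CPM in Control, 34.5 to 271 CPM in Glutamate, 41.9 to 228 CPM in Memantine, 60.3 to 331 CPM in Glutamate_vesicles, 44.3 to 342 CPM in Glutamate_secret and 69.9 to 189 CPM in Glutamate_BPC. Like Fn1, it was highest in number 2 in 5 of the 6 groups. Fn1 correlated with it at r = 0.94, Ltbp1 at r = 0.83, Fbln5 at r = 0.72 and Fbn1 at r = 0.70 (n = 18 libraries). Fbln2 gave r = -0.20 and Efemp2 r = -0.51. The part of these cells in the levels of Fn1, Ltbp1, Fbln5 and Fbn1 was not tested.

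Of 6 mural markers, Rgs5 was at 0 in 16 libraries, and Tagln, an actin-binding protein, made up 92.4% to 100% of the sum. The sum was 50.2 to 162 CPM in Control, 53.8 to 397 CPM in Glutamate, 41.6 to 393 CPM in Memantine, 265 to 669 CPM in Glutamate_vesicles, 338 to 809 CPM in Glutamate_secret and 289 to 600 CPM in Glutamate_BPC. Efemp2 followed it at r = 0.93, Fbln2 at r = 0.78 and Emilin1 at r = 0.66. For Fbln5, r was 0.32, or 0.86 when centred within replicate number. Endothelial markers summed to 0.32 to 3.92 CPM. The 6 astrocyte markers summed to 2608 to 6023 CPM in Control, 5367 to 10616.5 CPM in Glutamate and 3520 to 10132 CPM in Memantine. The sums were 3377 to 6819 CPM in Glutamate_vesicles, 5454 to 8605 CPM in Glutamate_secret and 7076 to 12699 CPM in Glutamate_BPC. Emilin1 followed them at r = 0.73, Fbln1 at r = 0.60 and Fbln2 at r = 0.31. For 6 microglia markers (16.6 to 381 CPM), Efemp2 gave r = 0.42, or r = 0.78 centred within replicate number. Neuronal markers were lower in the preparation groups than in Control, as given above, and Fbln5 followed them at r = -0.68 and Fbln2 at r = -0.46. The 6 markers of the oligodendrocyte lineage summed to 353 to 572 CPM in Control, 706 to 721 CPM in Glutamate, 343 to 732 CPM in Memantine, 833 to 1201 CPM in Glutamate_vesicles, 646 to 992 CPM in Glutamate_secret and 676 to 986 CPM in Glutamate_BPC, with none at 0 in any library. By the second criterion, 4 of the 6 were higher than in Control in Glutamate_vesicles, 2 in Glutamate_secret and 1 in Glutamate_BPC. Of all tested genes, 11.6%, 11.7% and 11.3% met it in either direction, in that order. Among neuronal markers 5, 5 and 3 of 7 were lower in the same order. Of the tested markers, 1 of 2 mural and 1 of 6 fibroblast markers were higher in each preparation group. Fbln5 followed the sum of the oligodendrocyte lineage markers at r = 0.82, Ltbp1 at r = 0.73 and Fbln2 at r = 0.39. The ribosomal RNA share, on the log2 scale, ran against Fn1 (r = -0.84) and less so with Fbln2 (r = 0.40). The part of these measures in the differences between groups was not tested.

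**Figure D5:**
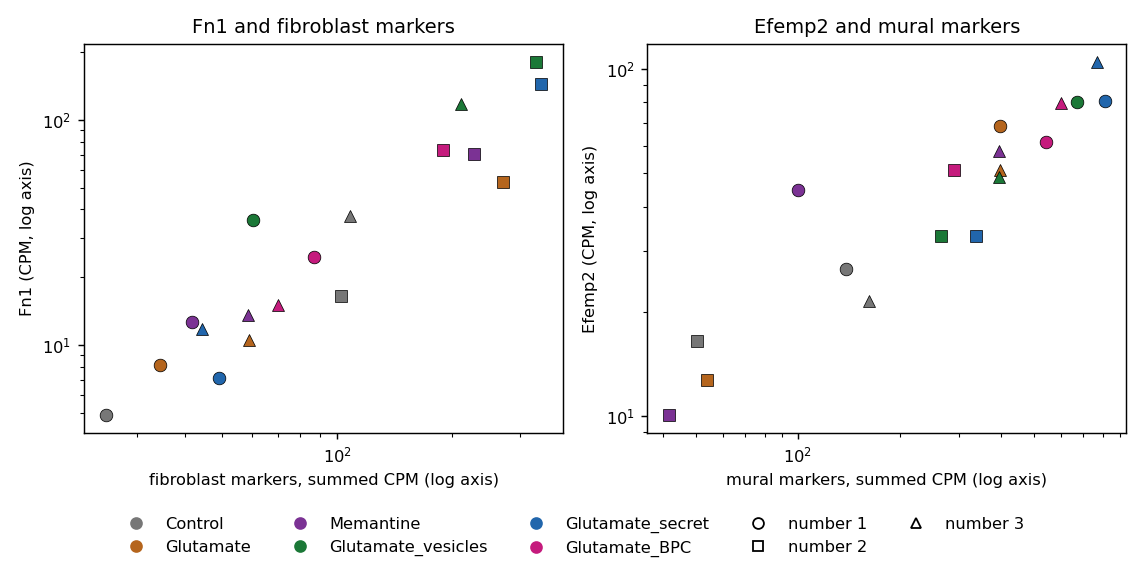
Fn1 level against the summed fibroblast markers and Efemp2 level against the summed mural markers (CPM, logarithmic axes), 1 point for each of the 18 libraries, with colours for groups and symbols for replicate numbers. Both pairs rise together (r = 0.94 and r = 0.93). Within most groups the library of number 2 (square) is the highest for Fn1, and within every group it is the lowest for Efemp2.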

How the data were processed

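RNA sequencing of 18 libraries (6 groups of 3) was analysed from 1 count table per library. The deposited values are expected counts, that is, estimated counts per gene. Per the methods, the authors used Trimmomatic and Cutadapt for trimming, Salmon (mapping mode; Ensembl transcriptome of the rat, genome decoy) for quantification, and tximport for the sums per gene. The labels' processing notes name STAR, Salmon and rn6. No Salmon version is given in the sources used here, and paper and labels differ on the sequencing platform. Estimated counts share reads among similar transcripts and carry no scaling between libraries.

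Counts were rounded to whole numbers, since the design had been written for counts. Genes were filtered with filterByExpr (minimum count 10, minimum total 15) and scaled by TMM. All 18 libraries entered 1 fit with a mean for each group and the quasi-likelihood test of edgeR 4.0.16 in R 4.3.3 (two-sided, Benjamini-Hochberg adjustment over 14398 genes). SE is that of the log2 fold change, derived from the F statistic. DESeq2 1.42.0 and the likelihood-ratio test of edgeR, which the study used, were alternatives, as were other scaling (including removal of 78 ribosomal RNA rows), no filter, a replicate block and each library left out. Log2 CPM used a prior count of 2. The edgeR steps were tested on simulated data.

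Replicate numbers were taken to pair libraries where deviations from the group means correlated above 0.1 for every number. This held for Memantine, Glutamate_secret and Glutamate_BPC against Glutamate (r from 0.44 to 0.89) and for Glutamate_vesicles against Control (0.60, 0.50 and 0.21), and the pairing is inferred from these data only. The block fitted replicate numbers over all 18 libraries at once. It therefore also covered groups whose numbers did not pair, and every blocked p-value rests in part on those.

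The members and lists were chosen with earlier results of these data known. All 10 members are given in every library. A fold change is given where the unadjusted p was below 0.05 or an alternative called the gene, and for Fbln2. From the partner lists, at most 3 genes per comparison are named, those with an unadjusted p below 0.05 and the largest fold change, and the genes most like Fbln2 are the 5 with the highest r. One gene that this rule names is not reported here. Promoter windows are from RefSeq (GRCr8), another build than that of the authors.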

Additional observations from a re-analysis of the deposited data

How the results depend on the processing

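Fbln2 was not tested where the Glutamate or Glutamate_secret libraries enter. Among the members tested, none was called at an adjusted p of 0.05 under any alternative other than the replicate block, and leaving out each library in turn gave 0 to 0 members called in each of the 9 comparisons. The block gave 1 member in Glutamate_secret against Control (Efemp2, log2 fold change 1.60, adjusted p = 0.038) and 1 in Glutamate_BPC against Control (Fbln5, log2 fold change 1.38, adjusted p = 0.047). In these comparisons, as in Glutamate and Memantine against Control and Glutamate_vesicles against Glutamate, the replicate numbers did not pair the libraries (for number 3, r = -0.45 and -0.26 in the first pair), so that they share only a number. The block changed no other call of a tested member. The log2 gap between the lowest Glutamate_vesicles or Glutamate_BPC library and the highest Control or Memantine library was 0.18 for Fbln2. It was 1.08 with total counts without ribosomal RNA and without TMM factors, a scaling chosen after seeing the data, and 0.18 to 1.03 with 1 library left out (1.03 without Control 1). For Fbln5 the gap was 0.44, it was -0.12 under that scaling, and it was 0.44 to 0.51 with 1 library left out. That scaling moved the median log2 fold change of all genes to -0.22 in Glutamate_secret against Glutamate, from -0.01. Of the alternatives for single fold changes, 177 kept their direction and, if tested, their side of the threshold, or, if given without a test, stayed within 1 SE. Of the others, 2 tested values passed the threshold with the block, and 3 untested values moved by more than their SE, all for Fbln2 in Glutamate_secret without Control 1 or Glutamate_secret 3 (1.65 to 3.59). Genes with few counts, such as Fbn1, Ltbp1 and Efemp1, are limited by depth. The counts at a fold change above 1.5 and an unadjusted p below 0.05 stayed within 1.5 times in 93 of the alternatives and moved further in 24. Against Control, Glutamate_vesicles gave 5 members without the filter, Memantine gave 1 without the filter, and Glutamate_secret gave 1 without TMM factors. Against Glutamate, Glutamate_vesicles gave 3 with the block (beside 460 of 14398 tested genes) and 1 without Glutamate_vesicles 1, and Glutamate_BPC gave 0 without TMM factors. Mean levels moved by less than 1 SD in 173 of the alternatives and by more in 7. Over all tested genes, the number with an adjusted p below 0.05 in Glutamate_vesicles against Control was 2 in the quasi-likelihood test, 160 in the likelihood-ratio test, 495 with DESeq2 and 538 with the block.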
